A study of Mus musculus with 12 samples.

Results

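Pancreatic acinar cells make and secrete the enzymes that digest food in the gut. The genes described here are 9 mouse genes for such enzymes, Prss2, Try4, Cpa1, Cpb1, Ctrb1, Ctrl, Pnlip, Pnliprp1 and Cel, followed over the 12 arrays of a study of the forestomach, the upper part of the mouse stomach that is lined by squamous epithelium and lacks gastric glands. They were followed array by array as signs of adjoining pancreas in the dissected tissue. Every probe that the scanner files name for one of them was taken, which gave 9 of 41174 probes. They stood for 8 of the 9 genes, 1 probe a gene and 2 for Pnlip. No probe carried the name Try4, so that gene has no value here.

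The arrays compared RNA of whole forestomach, labelled with Cy5, with a commercial pool of mouse RNAs (Agilent's Universal Mouse Reference RNA), labelled with Cy3 on every array. All mice were adult wild-type C57BL/6J. The groups of 4 arrays each were 40-week alcohol (15% alcohol for 40 weeks, with no saccharin named in the labels), 4-week alcohol (20% alcohol in a supersaccharin solution for 4 weeks) and control (supersaccharin solution with 0% alcohol). The 40-week group had no controls of its own age, so time and alcohol cannot be told apart there. Signals in each channel were at hand for the 4-week and control arrays, and for the 40-week arrays only the deposited log2 ratios of Cy5 over Cy3. The 4-week arrays lay on 1 slide and the control arrays on another, so slide and group cannot be told apart. Whether replicates came from separate animals is not stated, and the p-values below therefore cover the spread between these arrays alone, some of which may be technical.

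Acinar enzymes are packed into granules and released into the pancreatic duct, mostly as inactive precursors. Trypsin, the product of the trypsinogen genes such as Prss2 and Try4, activates the others in the gut. Ctrb1 and Ctrl encode a chymotrypsinogen and a chymotrypsin-like protease, which cut proteins after bulky residues, and Cpa1 and Cpb1 encode carboxypeptidases, which take amino acids off the ends of peptides. Pnlip encodes pancreatic lipase, which needs colipase (Clps) to work on fat droplets, Pnliprp1 a related protein with little lipase activity, and Cel the bile-salt-dependent carboxyl ester lipase. The transcription factor complex PTF1, which holds PTF1A and RBPJL, switches on many of these genes in acinar cells.

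The tissue label was borne out by the squamous keratins. Krt4 and Krt13, which squamous epithelium of the forestomach makes, were bright on each of the 8 arrays with signals. Krt4 had a Cy5 signal above background of 22900 to 89000 on the 4-week arrays and of 30800 to 104000 on the control arrays. Krt13 had 28600 to 84400 on the 4-week arrays and 52700 to 161000 on the control arrays. The median Cy5 signal above background of all spots was 42.4 to 112 on the 4-week arrays and 112 to 151 on the control arrays.

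The probes are 60-mers whose positions the scanner files give on mouse build mm9. Those below are shown because the results turn on them: Prss2 and Pnliprp1 were high on 2 or more arrays, Cpb1 and Cel were called at 40 weeks, and the clone probe of Pnlip is tied to another transcript than the probe that stood for the gene. No part of a probe is set in capitals.
Prss2, chr6:41473937-41473996, plus strand: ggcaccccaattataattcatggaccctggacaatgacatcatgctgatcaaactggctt
Cpb1, chr3:20149467-20149526, minus strand: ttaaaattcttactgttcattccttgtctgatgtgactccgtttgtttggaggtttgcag
Cel, chr2:28411609-28411668, minus strand: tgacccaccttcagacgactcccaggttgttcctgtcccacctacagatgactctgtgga
Pnliprp1, chr19:58815028-58815621, plus strand: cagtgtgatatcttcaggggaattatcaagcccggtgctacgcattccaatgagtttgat
Pnlip, clone probe, chr19:58748342-58748401, plus strand: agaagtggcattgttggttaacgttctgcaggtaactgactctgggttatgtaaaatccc
The Pnliprp1 probe of 60 bases spans a longer stretch of the genome, from base 58815028 to base 58815621, so it crosses an exon junction. Pnlip had 2 probes. The files tie the one above to a cDNA clone and not to the gene's reference transcript, and the other stood for the gene. Of the probes not shown, those of 3 genes lie at chr6:30595240-30595299 (Cpa1), chr8:114212498-114212557 (Ctrb1) and chr8:108456495-108456554 (Ctrl). Trypsinogen genes are closely similar copies of each other and lie side by side: 6 protein-coding genes, among them Try5, Prss3 and Prss1, stand between Try4 and Prss2 on chromosome 6 in RefSeq's GRCm38.p6. A probe for one of them can pick up another's transcript, so the gene behind the Prss2 signal is uncertain within this family. Pnlip and Pnliprp1 are direct neighbours on chromosome 19, with no protein-coding gene in the 47088 bases between them.

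Because the 8 genes were high together on one array, their promoters are shown as well, from 250 bases before to 50 after the annotated start in RefSeq's GRCm38.p6. All 9 genes had one. The motifs searched were CACCTG and TTTCCC on both strands, the letters of the E-box and the TC-box that PTF1 binds, and TATAAA on the gene's own strand. CACCTG occurred in 5 of the 9 promoters (Cel, Cpb1, Ctrl, Prss2 and Try4), against 20.2% of all 32851 mouse promoters of this length. TTTCCC occurred in 4 (Cel, Cpa1, Ctrb1 and Prss2), against 25.2% of all, and TATAAA in 4 (Cpb1, Pnlip, Prss2 and Try4), against 8.32% of all. In Cpb1 TATAAA lay after the start, at 36. Cel and Prss2 held the letters of both boxes somewhere in the window, which 4.86% of all promoters did. The distance between the boxes was not part of the search. In Prss2 the E-box letters were at -169. In Cel the E-box letters occurred 4 times, and in Prss2 the TC-box letters occurred 2 times, at -110 and -78 from the start. Capitals below mark these motifs, and no motif overlapped another.
Cel, chr2:28563354-28563653, minus strand: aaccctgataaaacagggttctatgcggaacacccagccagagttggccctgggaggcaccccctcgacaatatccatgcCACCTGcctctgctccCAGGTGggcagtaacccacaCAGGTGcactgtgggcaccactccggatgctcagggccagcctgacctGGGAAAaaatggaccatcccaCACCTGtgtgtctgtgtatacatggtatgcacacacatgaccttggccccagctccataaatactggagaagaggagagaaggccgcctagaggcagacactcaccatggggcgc
Prss2, chr6:41521526-41521825, plus strand: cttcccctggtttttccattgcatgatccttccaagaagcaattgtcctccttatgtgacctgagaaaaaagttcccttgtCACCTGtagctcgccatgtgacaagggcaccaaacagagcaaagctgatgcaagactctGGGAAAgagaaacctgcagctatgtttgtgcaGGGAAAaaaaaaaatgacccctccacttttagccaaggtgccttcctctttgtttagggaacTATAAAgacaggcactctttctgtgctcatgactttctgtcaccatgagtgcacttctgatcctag
Pnlip, chr19:58670115-58670414, plus strand: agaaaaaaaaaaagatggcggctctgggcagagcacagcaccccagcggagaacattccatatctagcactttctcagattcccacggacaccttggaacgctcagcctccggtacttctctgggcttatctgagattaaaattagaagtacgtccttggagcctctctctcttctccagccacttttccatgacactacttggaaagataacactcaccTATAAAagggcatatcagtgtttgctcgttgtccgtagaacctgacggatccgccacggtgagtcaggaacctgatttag
Pnlip is shown for contrast, since its window held TATAAA at -30 and neither CACCTG nor TTTCCC. A match is a run of letters and no measured binding.

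One control array carried the acinar transcripts at a level far above every other array. All 8 genes had a log2 ratio of Cy5 over Cy3 more than 1 above the mean of the other 3 controls on control replicate 3, where 1.76% of all 20743 genes with a value did. The excess was 4.09 to 7.54 on the log2 scale, with a median of 5.48. On 4-week replicate 2, 4 of 8 genes passed the same mark (Prss2, Cpb1, Pnliprp1 and Cel), where 4.19% of all genes did. On each of the other 10 arrays 0 of 8 genes passed it. For control replicates 1, 2 and 4 the mean includes control replicate 3, which puts the mark far higher there. Of all genes, 0.125%, 0.13%, 0.743% and 1.2% passed on 40-week replicates 1 to 4, 0.4%, 0.203% and 0.444% on 4-week replicates 1, 3 and 4, and 2.6%, 0.289% and 3.12% on control replicates 1, 2 and 4. In whole tissue, fewer acinar cells and less of their RNA per cell cannot be told apart.

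Among the proteases, Prss2 had a Cy5 signal above background of 24, 781, 21.9 and 12.1 on the 4-week arrays (replicates 1 to 4), against 77.8, 48.8, 268000 and 101 on the control arrays. It was high on control replicate 3, on 4-week replicate 2 at a far lower level, and at 101 or less elsewhere. The chymotrypsinogen Ctrb1 had 131, 258, 200 and 158 on the 4-week arrays, against 449, 518, 133000 and 600 on the control arrays. Every control array was brighter than every 4-week array for Ctrb1. Ctrl had 48.7, 33.5, 67.2 and 41.8 on the 4-week arrays, against 90.6, 111, 65900 and 131 on the control arrays, again with no overlap in this channel. The median Cy5 signal of all spots was also lower or equal on the 4-week arrays, as given above. Cy3, with the same RNA pool on every array, did not overlap either. Ctrb1 had a Cy3 signal of 291 to 492 on the 4-week arrays and of at least 583 on the control arrays. Ctrl had 123 to 177 on the 4-week arrays and at least 206 on the control arrays. The part of slide brightness in these Cy5 differences was not tested.

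The carboxypeptidase Cpa1 had a Cy5 signal above background of 26.2, 31.4, 22.3 and 10.5 on the 4-week arrays, against 287, 24, 371000 and 51 on the control arrays. Control replicate 3 stood far above the rest, yet control replicate 2 lay within the 4-week range. Cpb1 had 86, 187, 65.5 and 72.4 on the 4-week arrays, against 331, 354, 338000 and 392 on the control arrays. Even without replicate 3, each control array was above each 4-week array for Cpb1. The same held in Cy3, which carried the same RNA pool on every array. Cpb1 had a Cy3 signal of 32.8 to 46.7 on the 4-week arrays and of at least 52.9 on the control arrays. The part of slide brightness in the Cpb1 difference was not tested.

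Pancreatic lipase, Pnlip, had a Cy5 signal above background of 3.25, 13.2, 9.06 and 5.53 on the 4-week arrays, against 88.9, 4.72, 274000 and 32.9 on the control arrays. It was well above background on 0 of 4 4-week arrays and on 3 of 4 control arrays. The clone probe of Pnlip had 17.2, 27.4, 17.5 and 4.37 on the 4-week arrays, against 0.218, 14, 40400 and 14.7 on the control arrays. It was well above background on 3 of 4 4-week arrays and on 1 of 4 control arrays. Both Pnlip probes were highest on control replicate 3.

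Pnliprp1 had a Cy5 signal above background of 12.6, 2800, 19.7 and 6.6 on the 4-week arrays, against 42.5, 29.8, 94900 and 540 on the control arrays. It was raised on 3 arrays, control replicate 3, 4-week replicate 2 and control replicate 4. Cel had 390, 1410, 395 and 190 on the 4-week arrays, against 720, 614, 207000 and 839 on the control arrays. Cel was well above background on all 8 arrays, as were Cpb1, Ctrb1 and Ctrl.

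**Figure D1:**
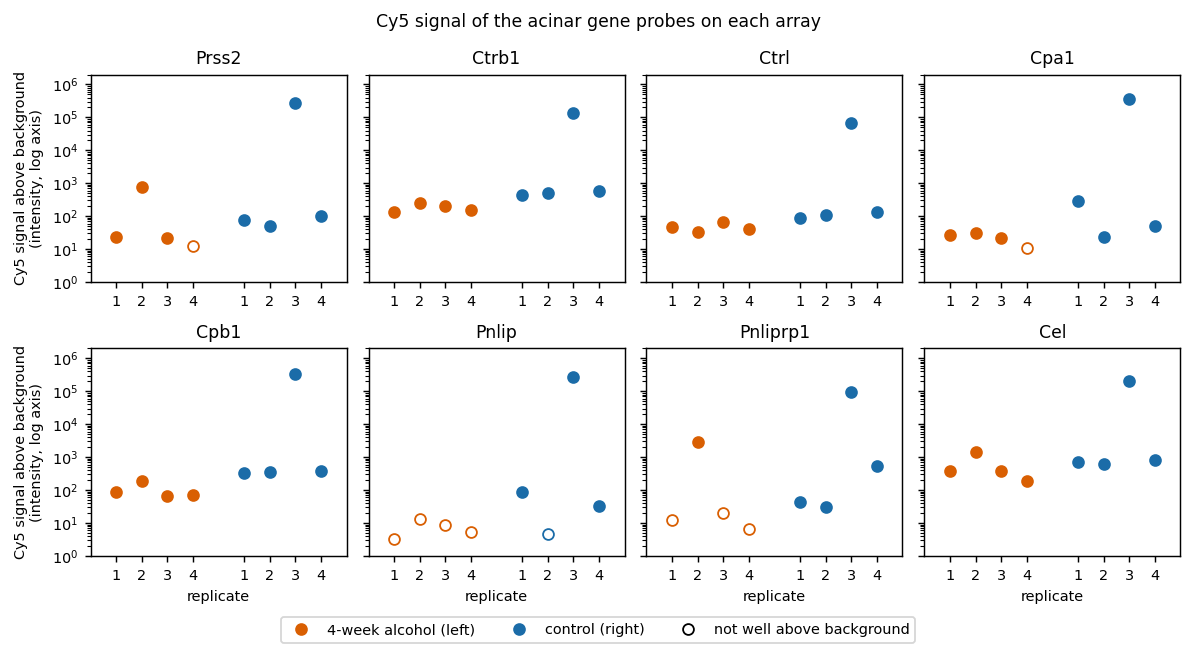
Cy5 signal above local background (intensity, log axis) of the probe that stood for each of 8 acinar genes, by replicate, on the 4 4-week alcohol arrays (left) and the 4 control arrays (right); open points were not well above background. Control replicate 3 lies between 65900 and 371000 in every panel, while Prss2 and Pnliprp1 also show a raised point on 4-week replicate 2 (781 and 2800).

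The size of the difference within the control group was 255-fold (Ctrb1) to 3530-fold (Prss2) in Cy5, as control replicate 3 over the mean of the other 3 controls, with a median of 594-fold over the 7 probes well above background on all 4 controls. Cpa1 was 3070-fold brighter there. No fold is given for the 2 Pnlip probes, which were not well above background on 1 or more of the other controls. No Cy5 spot of these probes was saturated, and none carried an outlier flag.

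The same probes were also brighter in Cy3 on that array, although Cy3 carried the same commercial RNA pool on every array. Cpa1 had a Cy3 signal above background of 6450 on control replicate 3, against 69.6, 42 and 52.5 on control replicates 1, 2 and 4. Over the 6 probes well above background in Cy3 on all 4 controls, the Cy3 signal was 8.26-fold to 118-fold higher on control replicate 3 than the mean of the other 3 controls, with a median of 16.4-fold. Across the array, 45 kept probes had a Cy5 signal more than 5 above the other controls on the log2 scale, and their median Cy3 excess was 2.49. The 28779 probes whose Cy5 signal lay within 1 of the other controls had a median Cy3 excess of -0.17. All 9 acinar probes were among the 45. Because both channels were higher, the log2 ratios are smaller than the Cy5 differences. Why Cy3 was higher was not tested.

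**Figure D2:**
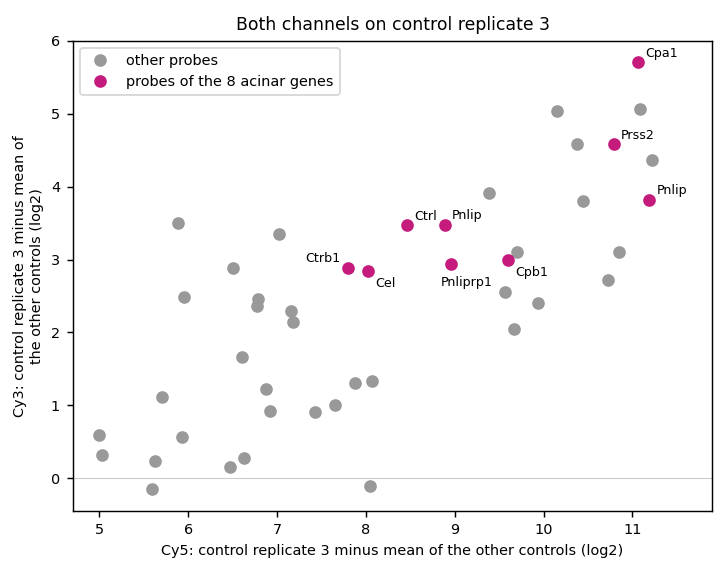
Log2 difference of control replicate 3 from the mean of the other 3 controls in Cy5 (horizontal) and Cy3 (vertical), for the 45 kept probes more than 5 above in Cy5. The 9 acinar gene probes (magenta, Pnlip with 2) all lie above 0 in both channels, with Cpa1 at 11.06 in Cy5 and 5.71 in Cy3.

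The other acinar genes were counted from lists chosen by function. On control replicate 3, 11 of 11 measured genes of the other acinar enzymes and 10 of 12 other acinar secretory proteins passed the mark of 1 above the other controls. Amy2a5, a pancreatic amylase, had a Cy5 signal above background of 285000 there, against 37.2, 19.7 and 83.3 on control replicates 1, 2 and 4. Reg1, a secreted lectin-like protein of acinar cells, had 166000 there, against 72.3, 40.8 and 445. Cela1, an elastase, had 89700 there, against 103, 142 and 2430.

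The transcription factors of acinar cells had a median excess of 0.57 on the log2 scale on control replicate 3, against 5.7 for the other acinar enzymes. Of 5 measured factors, 1 passed the mark on control replicate 3, and 2 did on 4-week replicate 2. Bhlha15 (also called Mist1), which shapes the secretory machinery, had a Cy5 signal above background of 61.2, 946, 56.8 and 48 on the 4-week arrays, against 74.1, 80.4, 893 and 692 on the control arrays. It was raised on 3 arrays, the same 3 as Pnliprp1. Glandular stomach genes were also raised on 4-week replicate 2 and control replicate 4 (13 of 17 on each). Their part in the Bhlha15 values was not tested. Ptf1a, the acinar subunit of PTF1, did not pass the filter on low values. It had 10.2, 185, 7.86 and 15 on the 4-week arrays, against 12.8, 9.4, 176 and 48.3 on the control arrays. Rbpjl, its partner, had 1470, 1480, 1930 and 878 on the 4-week arrays, against 1480, 1730, 2930 and 2020 on the control arrays, so no array stood far apart. Xbp1, a factor of the secretory stress response in many cells, had 2680 to 10100 on the 4-week arrays and 6000 to 11600 on the control arrays. Nr5a2 had 44.2 to 112 on the 4-week arrays and 85.9 to 156 on the control arrays, and Gata4 had 17.6 to 112 on the 4-week arrays and 38.7 to 139 on the control arrays.

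Hormone genes of the pancreatic islets did not share the pattern of control replicate 3, where 0 of 10 measured islet genes passed the mark. Insulin 2 (Ins2) had a Cy5 signal above background of 60.1 there, against 44.2, 54.6 and 52.3 on control replicates 1, 2 and 4. Ins1 had 17.8 there, against 10.3, 15.2 and 19. Glucagon (Gcg) had 46.7 there, against 42.5, 30 and 47.4, and Ppy had 19.7 there, against 13.9, 17.2 and 32.2. No probe was matched to Iapp. Somatostatin (Sst), which cells of the stomach also make, had 74.6, 34000, 51.8 and 33.1 on the 4-week arrays, against 55.3, 79.6, 131 and 2370 on the control arrays. Sst was high on 4-week replicate 2 and control replicate 4 and not on control replicate 3.

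Liver genes and glandular stomach genes stood out most on different arrays. The split was not clean. On 4-week replicates 1 and 2, 3 of 9 liver genes passed the mark on each. On 4-week replicate 2 and control replicate 4, 4 of 9 small intestine genes did on each. The shares of all genes on these arrays are given above. Control replicate 4, where glandular stomach genes were raised, had 0 of 8 acinar genes over the mark. Control replicate 3 is part of the mean used there, which all but fixes that count. Set against control replicates 1 and 2 alone, 1 of 8 passed, Pnliprp1 at 2.87 above, where 3.77% of all genes did. On control replicate 3, 9 of 9 measured liver genes passed the mark and 1 of 17 genes of the glandular stomach did. The summed Cy5 signal of the liver genes was 39700 there, against 556 to 8310 on the other controls and 371 to 13100 on the 4-week arrays. Their part in the acinar result was not tested. On 4-week replicate 2 and control replicate 4, 13 of 17 glandular stomach genes passed the mark on each. Their summed Cy5 signal was 2050000 on 4-week replicate 2, against 1840 to 8190 on the other 4-week arrays. It was 1580000 on control replicate 4, against 5920 to 20100 on the other control arrays. Their part in the Prss2, Pnliprp1, Cpb1 and Cel values of 4-week replicate 2 was not tested.

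Those 2 arrays carried some genes of the acinar lists and not others. Whether every gene of these lists is made by acinar cells alone was not checked, so the counts may include other cells. On 4-week replicate 2, 7 of 11 other acinar enzymes and 6 of 12 other acinar secretory proteins passed the mark, where 4.19% of all genes did. On control replicate 4 it was 3 of 11 enzymes and 3 of 11 secretory proteins, where 3.12% of all genes did. Control replicate 3 is part of the mean used there and lowers these counts. Set against control replicates 1 and 2 alone, 5 of 11 enzymes and 6 of 11 secretory proteins passed, where 3.77% of all genes did. Clps, the colipase that Pnlip needs, had a Cy5 signal above background of 116, 490000, 63.2 and 26.9 on the 4-week arrays, against 222, 77.5, 303000 and 493000 on the control arrays. Clps was thus as bright on 4-week replicate 2 and control replicate 4 as on control replicate 3, where Pnlip itself had 13.2, 32.9 and 274000 on the same 3 arrays. Of the other trypsinogen probes, Try5 had 3250 and Prss3 2470 on 4-week replicate 2, both chosen for naming after their values were seen. The 2 had at most 115 on the other 4-week arrays. Summed over the 8 members, the Cy5 signal was 722, 5510, 800 and 497 on the 4-week arrays, against 2090, 1700, 1750000 and 2690 on the control arrays.

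**Figure D3:**
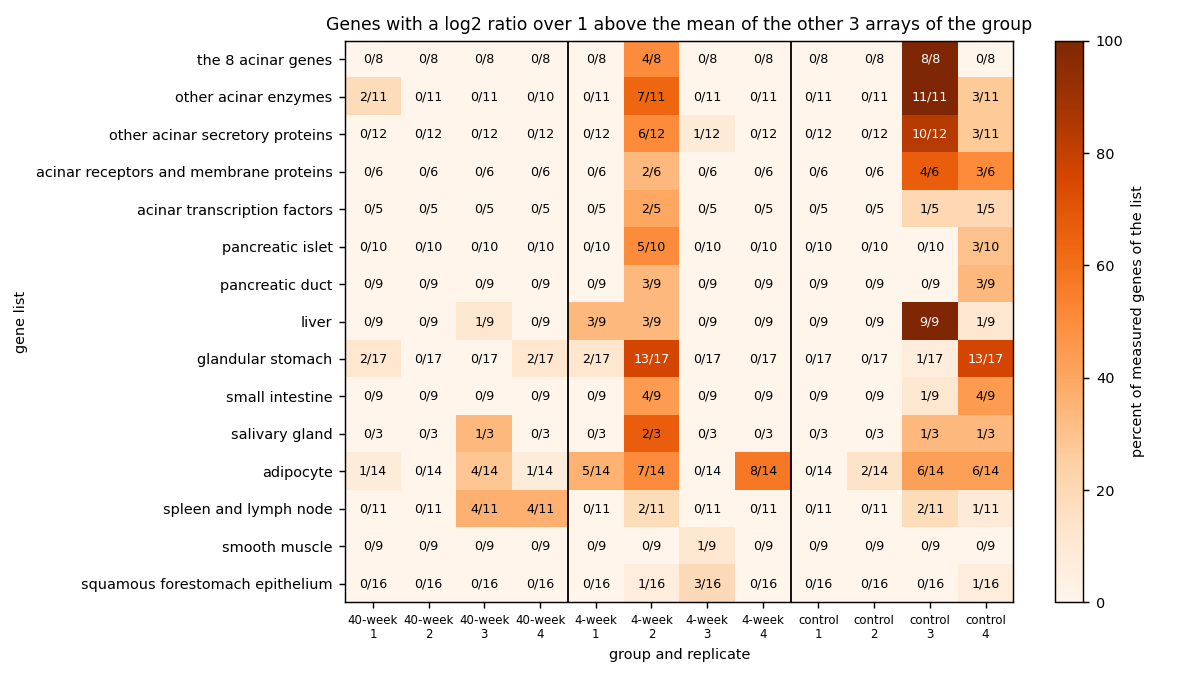
Number of genes of each list (rows) with a log2 ratio more than 1 above the mean of the other 3 arrays of their group, over the number measured, on 40-week, 4-week and control arrays (columns, left to right); colour gives the percentage. The 8 acinar genes stand out on control replicate 3 (8 of 8) and 4-week replicate 2 (4 of 8), and glandular stomach genes on 4-week replicate 2 and control replicate 4 (13 of 17 each). For the other controls the mean includes control replicate 3, which lowers their acinar counts.

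With control replicate 3 left out and each remaining control set against the mean of the other 2, a setting added after seeing the data, 2 of 8 genes passed the mark on control replicate 1, where 1.5% of all genes did. They were Cpa1, 1.99 above, and Pnlip, 1.06 above. On control replicate 4 it was 1 of 8, Pnliprp1 at 2.87 above, where 3.77% of all genes did. On control replicate 2 it was 0 of 8, where 0.612% did.

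Likeness in pattern was measured as Pearson's r over the 8 arrays with signals. Each member against the mean of the other members gave r of 0.84 (Pnliprp1) to 0.987 (Cel). Without control replicate 3, over 7 arrays, r was -0.464 (Ctrl) to 0.821 (Cel), so the joint pattern rested on that array. Of 17002 other genes, the 10 most like the members' mean were Cela2a (r of 0.992), Amy2a5 (0.991), 2210010C04Rik (0.99), Slc39a5 (0.986), Pstpip2 (0.985), Klk1b21 (0.984), Amy1 (0.981), Reg1 (0.979), Serpini2 (0.978) and Ctrc (0.977). Over all samples of the deposited table with a value, r of these 10 ran from 0.746 (Pstpip2) to 0.985 (2210010C04Rik). Of the 10, 6 stand in the acinar lists, and all these correlations share the one high control array.

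At 40 weeks the acinar genes lay within a narrow range. Prss2 had deposited log2 ratios of 0.362, -0.245, -0.015 and 0.213 on the 40-week arrays, of -0.049, 3.938, -0.115 and -0.376 on the 4-week arrays, and of 1.019, -0.143, 6.271 and 1.101 on the control arrays. Pnlip had -0.251, 0.687, 0.012 and 0.19 on the 40-week arrays, -0.439, 0.891, 0.699 and 0.162 on the 4-week arrays, and 3.283, -0.089, 8.04 and 0.654 on the control arrays. Both genes overlapped between all groups, and no 40-week array stood apart. Pnliprp1 had -0.245, -0.377, -0.425 and -0.544 on the 40-week arrays, 0.05, 4.743, 0.803 and -0.46 on the 4-week arrays, and 1.058, 0.258, 7.31 and 4.337 on the control arrays. Every 40-week array was below every control array for Pnliprp1.

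Cpa1 had 0.321, 0.288, 0.261 and 0.297 on the 40-week arrays, 0.456, 0.39, 0.553 and -0.094 on the 4-week arrays, and 3.439, -0.046, 5.88 and 0.791 on the control arrays. Ctrl had -0.214, 0.371, 0.093 and 0.2 on the 40-week arrays, -0.241, -0.77, 0.331 and 0.223 on the 4-week arrays, and 0.191, -0.01, 4.816 and 0.294 on the control arrays. Outside control replicate 3 these groups overlapped widely. Ctrb1 had 0.243, 0.685, 0.502 and 0.399 on the 40-week arrays, 0.343, 0.385, 0.598 and 0.722 on the 4-week arrays, and 1.209, 0.763, 4.98 and 1.051 on the control arrays. Both alcohol groups lay below all controls for Ctrb1.

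Cpb1, the carboxypeptidase for basic residues, had log2 ratios of 1.894, 1.905, 1.625 and 0.669 on the 40-week arrays, 2.24, 3.651, 1.974 and 2.955 on the 4-week arrays, and 3.97, 3.609, 8.8 and 3.847 on the control arrays. Cel had 0.788, 0.679, 0.719 and 1.061 on the 40-week arrays, 2.07, 2.928, 1.838 and 1.696 on the 4-week arrays, and 2.38, 1.564, 6.062 and 1.959 on the control arrays. For both, every 40-week array lay below every array of either other group.

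**Figure D4:**
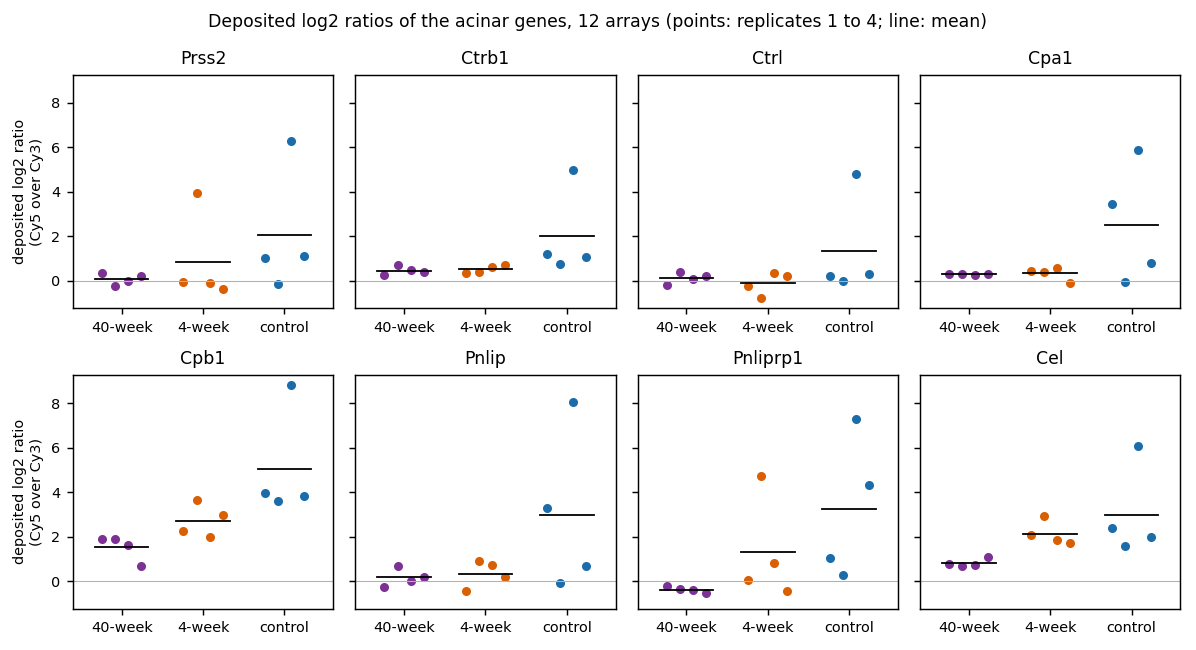
Deposited log2 ratio of Cy5 over Cy3 (vertical) for each acinar gene on the 4 40-week, 4 4-week and 4 control arrays (left to right; points are replicates 1 to 4, lines are means). The 40-week points of Cpb1 (0.669 to 1.905) and Cel (0.679 to 1.061) lie below all points of the other groups, and control replicate 3 is the highest point of every panel.

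Set against control, 40 weeks of 15% alcohol went with lower Cpb1 and Cel. By limma on the deposited ratios of all 12 arrays, with Benjamini-Hochberg adjustment over all genes, Cpb1 fell by 3.53 on the log2 scale (SE 0.96, adjusted p = 0.0114) and Cel fell by 2.18 (SE 0.77, adjusted p = 0.0389). Cpb1 averaged 1.52 ± 0.58 at 40 weeks and 5.06 ± 2.5 in controls, and Cel averaged 0.81 ± 0.17 at 40 weeks and 2.99 ± 2.07 in controls (SD, n = 4 each). These were 2 of 8 genes called lower, where 23.9% of all 20745 genes were called lower and 42.6% were called in either direction, so the share among the acinar genes was near that of all genes. All 8 estimates were negative, with a median of -2.2 against -0.09 over all genes. Groups did not overlap, with 40 weeks lower, for 4 of 8 genes (Cpb1, Ctrb1, Pnliprp1 and Cel), where that held for 23.9% of all genes. The probes of Pnlip and Pnliprp1 had passed the filter on low values through the controls alone, which favours a lower value in the alcohol groups, so these counts and the median do not bear on a fall. Among the other 6 genes, 3 did not overlap and the median was -2.08. Cel lost its call in several alternatives, with an adjusted p by limma of 0.0509 with a replicate block, 0.0538 with no filter, 0.0501 without 4-week replicate 1 and 0.0647 to 0.0778 without any single 40-week replicate. Cpb1 lost its call too with every array scaled to one spread (adjusted p = 0.0514 by limma) and without 40-week replicates 3 and 4 (adjusted p = 0.0962).

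The other 6 genes did not pass the threshold. Pnliprp1 had a log2 change of -3.64 (SE 1.43, adjusted p = 0.0586 by limma), Cpa1 -2.22 (SE 0.97, adjusted p = 0.0833), Ctrb1 -1.54 (SE 0.72, adjusted p = 0.105) and Pnlip -2.81 (SE 1.34, adjusted p = 0.11). Prss2 had -1.98 (SE 1.26, adjusted p = 0.228) and Ctrl -1.21 (SE 0.86, adjusted p = 0.278). The standard deviation of the log2 ratio over the 8 genes was 0.02 to 0.58 at 40 weeks and 1.99 to 3.68 in controls. Without control replicate 3 it was 0.15 (Ctrl) to 2.16 (Pnliprp1) in controls. For Cpb1 it was then 0.18, below its 0.58 at 40 weeks. The 40-week columns also had a smaller spread over all probes, as given below.

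Without control replicate 3 the estimates were smaller and some were more precise. Cpb1 then had a log2 change of -2.29 (SE 0.4, adjusted p = 0.0013 by limma), and Cel had a change of -1.16 (SE 0.28, adjusted p = 0.00885). Ctrb1 then passed as well, at -0.55 (SE 0.16, adjusted p = 0.0196), which made 3 of 8 called, where 36.6% of all genes were. The median of the 8 genes was -1.11. With control replicate 4 and 4-week replicate 2 left out too, the number called was also 3 of 8 (Cpb1, Pnliprp1 and Cel), where 36.2% of all genes were. The 40-week columns of the table had a smaller spread over all probes than the others, with a standard deviation of 1.02 to 1.08, against 1.48 to 1.73 in the 4-week and control columns. With every array scaled to one spread 0 of 8 genes were called, Cpb1 at -2.02 (adjusted p = 0.0514) and Cel at -1.32 (adjusted p = 0.071), where 23.9% of all genes were called.

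Of the other acinar genes, those called lower at 40 weeks against control, where 23.9% of all genes were, were 2 of 11 other enzymes (Ctrc and Rnase1), 3 of 12 secretory proteins (Gatm, Reg3a and Sycn), 3 of 5 transcription factors (Nr5a2, Rbpjl and Xbp1) and 2 of 6 receptors and membrane proteins (Cckar and Slc38a5). None of these lists had a gene called higher. In the same comparison 15 of 16 genes of squamous epithelium and 9 of 9 of smooth muscle were also called lower, so the tissue's own genes moved the same way. The part of this in the acinar result was not tested.

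After 4 weeks of 20% alcohol no acinar gene passed the test against control. By limma on the scanner signals of the 8 arrays, 0 of 8 genes were called, where 1.07% of all 20745 genes were, and 0 of 8 had an unadjusted p under 0.05, where 17.9% of all did. All 8 estimates were negative, from -2.61 to -0.98 on the log2 scale with a median of -1.53, against -0.02 over all genes. Among the 6 genes other than Pnlip and Pnliprp1, whose probes passed the filter through the controls alone, the median was -1.4. In the same comparison 16 of 16 genes of squamous epithelium had negative estimates (median -1.06, 6 called lower), as did 9 of 9 of smooth muscle (median -0.81, 3 called lower), where 0.805% of all genes were called lower, and the part of this in the acinar estimates was not tested. The most negative was Cpb1 at -2.61 (SE 1.3, adjusted p = 0.334 by limma), with means of 1.44 ± 0.55 at 4 weeks and 4.05 ± 3.1 in controls (SD, n = 4 each). Cpb1 and Ctrb1 did not overlap between the groups, both lower at 4 weeks, 2 of 8, where 6.31% of all genes did so. Pnlip, not well above background on any 4-week array, did not pass the test (adjusted p = 0.49 for its log2 ratio by limma). The bound on its difference was at least 9.13-fold lower at 4 weeks in Cy5 than in control, and at least 1.33-fold lower without control replicate 3, in a probe that the filter kept for its signal in controls. This bound sets the control mean of normalised Cy5 signals against the dimmest signal well above background on the 4-week arrays, and rests on channels with no dye swap. It does not hold array by array. Control replicate 2, with a Cy5 signal above background of 4.72, lay within the 4-week range of 3.25 to 13.2. The filter favoured a lower value at 4 weeks for this probe, so the bound does not bear on a fall.

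These estimates rested on control replicate 3. Without it the median was -0.25, and 6 of 8 genes stayed negative. Prss2 then had a log2 change of 0.44 (SE 0.81) and Cel of 0.1 (SE 0.33). Cpb1 had -1.06 (SE 0.28, adjusted p = 0.131 by limma) and Ctrb1 -0.47 (SE 0.13, adjusted p = 0.144), and 0 of 8 were called, where 0% of all genes were, with 2 of 8 at an unadjusted p under 0.05, near the 18.8% of all genes. Of the other acinar lists, 0 of 11 enzymes, 0 of 12 secretory proteins, 0 of 5 transcription factors and 0 of 6 receptors and membrane proteins were called with all arrays. In Cy5 alone the changes were -3.24 to -1.82 and in Cy3 alone -1.46 to -0.51 on the log2 scale over all arrays, with 0 of 8 called in either channel. Of all genes 0.323% were called in Cy5 alone and 8.68% in Cy3 alone, and Cy3 carried the same RNA pool on both slides.

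**Figure D5:**
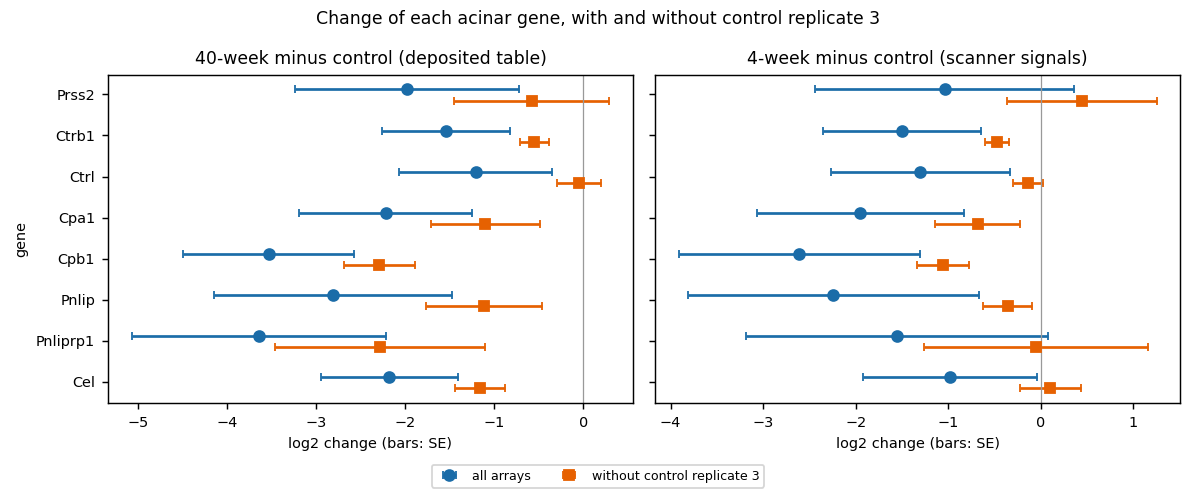
Log2 change of each acinar gene (points, bars are SE) for 40-week minus control from the deposited table (left) and 4-week minus control from scanner signals (right), with all arrays and without control replicate 3. Without that array the changes lie nearer 0 in both panels, Cpb1 at 40 weeks being -2.29 in place of -3.53.

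Set against 4 weeks of 20% alcohol, 40 weeks of 15% alcohol gave 0 of 8 acinar genes called by limma, where 41.6% of all genes were called in either direction. At an unadjusted p under 0.05 it was 0 of 8, where 50.1% of all genes passed. The median change was -0.47 on the log2 scale. Cel had -1.32 (SE 0.77, adjusted p = 0.19) and Cpb1 -1.18 (SE 0.96, adjusted p = 0.344), with no overlap between the groups for either, 40 weeks lower, where 25.4% of all genes did so. All 3 groups share 1 estimate of the spread, which control replicate 3 widens. Without that array Cel had an adjusted p of 0.00214 and Cpb1 of 0.0234 at the same changes, 2 of 8 called, where 43.2% of all genes were. With control replicate 4 and 4-week replicate 2 left out as well, Cel alone passed (-1.06, adjusted p = 0.00227 by limma), 1 of 8, where 45.6% of all genes did. Doses and times differ together between these groups, and their controls are shared with the comparisons above.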

How the data were processed

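RNA of mouse forestomach (Cy5) and a pooled reference RNA (Cy3) were hybridised to 2-colour arrays, with samples grouped by their titles. Mean spot and local background signals are deposited intensity values, with processed intensity and other 0 or 1 flags, per the file headers. The headers name Feature Extraction 10.7.3.1, the submitters' processing notes 9.1. The authors deposited a table of log2 ratios, Cy5 over Cy3, whose column medians were 0 to 0.067. For the 8 arrays with scanner files it tracked background-subtracted ratios (r of at least 0.9998 over probes), and how the 40-week columns were made is unknown.

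Scanner signals were corrected with normexp (offset 50) and loess in limma 3.58.1 (R 4.3.3). Probes with Cy5 flagged well above background on 3 or more of the 4 arrays of the 4-week or control group were used, which left 30455 probes and 20745 genes, each read by its brightest probe. All 9 acinar probes were kept. The gene probe of Pnlip and the probe of Pnliprp1 passed through the controls alone. The 40-week comparisons used the deposited log2 ratios of all 12 arrays, with exact zeros as missing. No acinar value was 0. Calls need an adjusted p under 0.05. Precision is limited by the number of arrays. The share of spots with Cy5 well above background was 64.8% to 78.8%.

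On simulated data for 4 weeks against control (20745 genes), 68% of log2 changes of 1, 92% of 2, 100% of 3 and 98% of -3 were recovered. For 40 weeks against control it was 56%, 90%, 98% and 94%. These rates are not specific to the acinar genes, and recovery at their spread was not tested. Their SEs were 0.85 (Ctrb1) to 1.63 (Pnliprp1) for 4 weeks against control. For 40 weeks against control the SEs were 0.72 (Ctrb1) to 1.43 (Pnliprp1). Named were all acinar genes and probes, the acinar transcription factors, islet hormone genes, defining markers, genes called from the other lists, and the 10 genes most like the members. The members and lists were chosen with earlier results of these data known. The labels do not say that a replicate number pairs samples, and the main fits used no pairing. Correlations of same-numbered deviations ran from -0.48 to 0.32, which cannot show whether samples were paired. Alternatives covered background correction, normalisation, filter, spread, probe choice, replicate block and each array left out. The sequence and position of one acinar probe are not reported here.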

Additional observations from a re-analysis of the deposited data

Results flagged for a closer look

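A value far from the other 3 of its group, by Dixon's ratio above its 95% critical value for 4 samples, was found in 9 of 24 groups of log2 ratios, 0 of 8 at 40 weeks, 3 of 8 at 4 weeks and 6 of 8 in controls. Chance gives about 1 in 20 groups, and over all genes the share was 5.57% at 40 weeks, 6.82% at 4 weeks and 6.16% in controls. The acinar genes were chosen with earlier results of these data known, so their count is a description and no test against these shares. The groups share the same 12 arrays, and all 6 in controls were high on 1 array, control replicate 3, so they are not independent of each other. On control replicate 3 the ratios far above the rest were 6.23 for Prss2, 8.7 for Cpb1, 4.95 for Ctrb1, 4.77 for Ctrl, 7.96 for Pnlip and 6.02 for Cel. On 4-week replicate 2 they were 3.3 for Prss2 and 4.36 for Pnliprp1. The remaining one was low, Cpa1 on 4-week replicate 4 at -0.03, where its Cy5 signal was not well above background. Cpa1 and Pnliprp1 were not far apart by this measure on control replicate 3, where control replicate 1 held a log2 ratio of 2.11 for Cpa1 and control replicate 4 one of 3.09 for Pnliprp1.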

How the results depend on the processing

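For 40 weeks against control the number of acinar genes called, 2 in the report, was 0 with every array scaled to one spread (23.9% of all genes called), 1 with no filter (31.5%), 0 without 40-week replicates 3 and 4 (24.4%), 1 with a replicate block (41.9%), and 1 to 5 as single arrays were left out (34.8% to 44.6%). The 5 came without control replicate 2, when Cpa1 (-3.08), Pnlip (-3.83) and Pnliprp1 (-4.63) passed too, and the 1 without 4-week replicate 1 or any single 40-week replicate. Where 1 was called it was Cpb1, and Cel was the gene lost. Without control replicates 3 and 4 and 4-week replicate 2, Pnliprp1 passed at -1.06 and Ctrb1 did not (adjusted p = 0.0501 by limma), and Ctrl turned to 0.02. With the same 3 arrays left out, Ctrl turned to 0.03 for 4 weeks against control. For 40 weeks against 4 weeks those 3 arrays gave 1 call in place of 0 (45.6%), Prss2 at 0.26 and Pnlip at 0.02, and single arrays left out gave 0 to 2 calls (34.3% to 44.2%). There Cpa1 turned to 0.06 and Ctrb1 to 0.02 with one spread, and to 0.07 and 0.1 after quantile normalisation. Leaving out single arrays took Prss2 across -1.18 to 0.26, Cpa1 across -0.17 to 0.04, Ctrb1 across -0.13 to 0.02 and Pnlip across -0.42 to 0.02 there, and for 4 weeks against control took Prss2 across -1.87 to 0.44 and Cel across -1.45 to 0.1. The members' median ran from -2.17 to -0.25 for 4 weeks against control, from -2.9 to -1.11 for 40 weeks against control and from -0.75 to -0.06 for 40 weeks against 4 weeks. In the array count, the deposited table gave 1 of 8 genes on control replicate 1 and 1 on control replicate 4 in place of 0, and leaving out control replicate 3 gave 2 and 1. The causes were not tested. The block changed no other call, and signal over background limits what Pnlip, Pnliprp1, Prss2 and Cpa1 can show at 4 weeks.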

Other observations

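The 2 arrays on which Clps and Pnliprp1 were raised beside control replicate 3 were those with transcripts of the glandular stomach. Atp4a, a subunit of the acid pump of parietal cells, had a Cy5 signal above background of 45.9, 54200, 35 and 20.3 on the 4-week arrays, against 45.7, 30.6, 121 and 49600 on the control arrays. Pgc, a pepsinogen of chief cells, had 32.2, 326000, 21.2 and 13.4 on the 4-week arrays, against 15.2, 20.8, 66.7 and 73400 on the control arrays. Gkn2, a gastrokine of surface mucous cells, had 1640, 369000, 129 and 92.3 on the 4-week arrays, against 1480, 36, 4420 and 425000 on the control arrays.

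Of 14 measured adipocyte genes, 7 were more than 1 above the other arrays of their group on 4-week replicate 2, 5 on 4-week replicate 1, 0 on 4-week replicate 3 and 8 on 4-week replicate 4, against 6 on control replicate 3, 6 on control replicate 4, 2 on control replicate 2 and 0 on control replicate 1. They were thus raised on the arrays where acinar genes were high and on others. Adipoq, the adipokine adiponectin, had 3590, 15000, 20.6 and 2830 on the 4-week arrays, against 268, 7460, 12500 and 15600 on the control arrays, so it was low on 4-week replicate 3 and control replicate 1.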
